A study of Homo sapiens with 3 samples.

Results

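The enzymes described here are the cytochromes P450 (CYP), the UDP-glucuronosyltransferases (UGT1A, UGT2A and UGT2B), the cytosolic sulfotransferases (SULT) and the soluble glutathione S-transferases (GST), as transcripts in a human liver cancer cell line. Members were chosen by gene symbol alone, with the sterol demethylase gene CYP51A1 left out. The rule found 102 gene names at 91 loci in each library, among 56969, 56769 and 57072 rows in the shDIS3L2, shHNRNPU and control tables. The difference between 102 and 91 comes from 5 loci that join several member genes under 1 value, the largest of them the UGT1A locus. Another 7 loci were joined to a gene that is not a member, such as CYP27B1 to METTL1.

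The cells were PLC, an established line from a human hepatocellular carcinoma, and all were infected with virus carrying short hairpin RNA and harvested 48 hours later. In the shDIS3L2 library the hairpins were directed against DIS3L2, an exonuclease that degrades uridylated RNA from the 3' end. In the shHNRNPU library (labelled shhnRNP U) they were directed against HNRNPU, the gene of the nuclear RNA-binding protein hnRNP U, and in the control library against no human gene. Each group is 1 library, the sources do not say how many hairpins were used per target or whether they were pooled, and a single cancer line stands for no other liver cell. With 1 library per group there is no replicate check, no difference has a p-value, and a difference compares libraries and not conditions.

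P450 enzymes add oxygen to lipophilic molecules, and the other enzymes attach glucuronic acid, sulfate or glutathione to them or to their oxidised products, which makes them easier to excrete. In adult liver, P450 families 1 to 3 act mainly on drugs and other foreign compounds, family 4 on fatty acids, and the higher families on sterols, bile acids, steroid hormones, retinoids and vitamin D. Hepatocytes are the main site of this metabolism in the body, and liver cancer lines are known to keep only part of it.

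Values are FPKM, a unit that divides fragments by transcript length and by library size, so they can be compared between genes of different length. A range in parentheses after an FPKM is the interval deposited with it, which covers the estimate within that library. Depth was estimated from single-exon genes at 18400000, 20100000 and 23000000 fragments in shDIS3L2, shHNRNPU and control. DIS3L2 stood at 3.23 FPKM (2.31 to 4.15) in shDIS3L2, against 7.61 (6.70 to 8.53) in control. HNRNPU stood at 33.5 FPKM (31.8 to 35.2) in shHNRNPU, against 178 (172 to 184) in control. Both targeted genes share their locus with a second gene name. The tables list 11 and 10 mitochondrial rows in shDIS3L2 and shHNRNPU but 0 in control, so whether fragments were scaled alike in control is not known. Hepatocyte markers were present, with 14 of 16 at a mean of at least 1 FPKM, and their summed level was 3677 FPKM in shDIS3L2 and 8151 in shHNRNPU, against 14126 in control. Most of that sum is SERPINA1, and without it the sums were 812 and 1441 FPKM, against 2687. Of the 14 markers, 1 was higher (FGB, at 17.9 FPKM against 6.21) and 7 were lower in shDIS3L2 by the size rule given with the enzymes. In shHNRNPU 0 were higher and 7 lower. Over all loci of that level, 8.6% were higher and 6.68% lower in shDIS3L2, and 7.45% and 6.78% in shHNRNPU. The part of the hepatocyte markers in the enzyme differences was not tested. In bulk RNA fewer cells of a type and less RNA per cell cannot be told apart. Of 19 markers of fibroblasts, endothelium, blood cells and bile ducts, 18 were found, and 4 reached a mean of 1 FPKM, all of them blood or bile duct genes and 1 of them (CD68) joined to the abundant EIF4A1. LUM, KDR and CD3E were listed at 0 in all 3 libraries. The summed level of these markers was 1511 FPKM in shDIS3L2 and 1763 in shHNRNPU, against 1702 in control, and without the CD68 locus it was 79.1 and 82.4 FPKM, against 195. LYZ, a myeloid marker, stood at 33.5 and 70.8 FPKM, against 181, and was lower in both knockdowns. The bile duct markers KRT7 and SOX9 were higher in shDIS3L2, at 32.2 and 10.0 FPKM, against 7.04 and 4.08 in control. The part of these markers in the enzyme differences was not tested.

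Most of these enzymes were at or near the limit of detection. Of the 91 loci, 25 were listed at 0 in all 3 libraries, 36 more stayed under 1 FPKM in every library, 6 reached 1 FPKM in a library with a mean below 1, and 24 had a mean of at least 1 FPKM. The count at or above 1 FPKM was 22 in shDIS3L2 and 25 in shHNRNPU, against 28 in control. By class, a mean of 1 FPKM was reached by 13 of 53 P450 loci, 8 of 15 GST loci, 3 of 13 SULT loci and 0 of 10 UGT loci. A value of 0 need not mean an absent transcript, since RXRB, a receptor gene that nearly all cells transcribe, was also listed at 0 in every library.

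**Figure D1:**
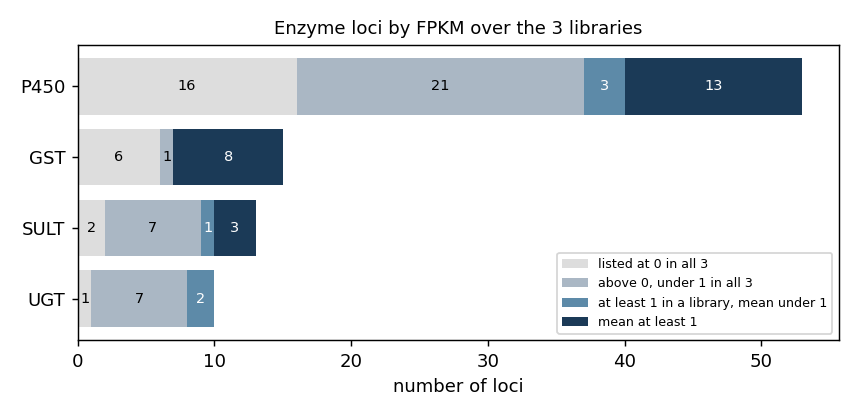
Number of enzyme loci (x axis) in each class (rows), split by FPKM over the 3 libraries. Of the P450 loci 13 of 53 had a mean of at least 1 FPKM, of the GST loci 8 of 15, and of the UGT loci 0 of 10.

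The glutathione transferases held almost all of the transcript. Their summed level was 3331 FPKM in shDIS3L2 and 4426 in shHNRNPU, against 4372 in control, which is 94.3%, 95.2% and 94.7% of the summed FPKM of all members. GSTP1, the pi class enzyme, made up 76.3%, 80.5% and 76.6% of that sum by itself. In normal adult human liver GSTP1 is known mainly from bile duct cells, while hepatocytes transcribe the alpha class genes GSTA1 and GSTA2. Here GSTA1, GSTA2, GSTA3 and GSTA5 were listed at 0 in all 3 libraries. P450 loci summed to 156 FPKM in shDIS3L2 and 97.9 in shHNRNPU, against 138 in control. SULT loci summed to 43.3 and 124, against 106, and UGT loci to 2.77 and 1.09, against 2.74. Loci joined to genes that are not members carry much of these sums. The CYP27B1 and METTL1 locus gave 47.9 FPKM of the P450 sum in shDIS3L2 and 22.1 in shHNRNPU, against 50.3 in control. The SULT1A3 and SULT1A4 loci, joined to SLX1A and SLX1B, gave 36.8 and 116 FPKM of the SULT sum, against 99.1.

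**Figure D2:**
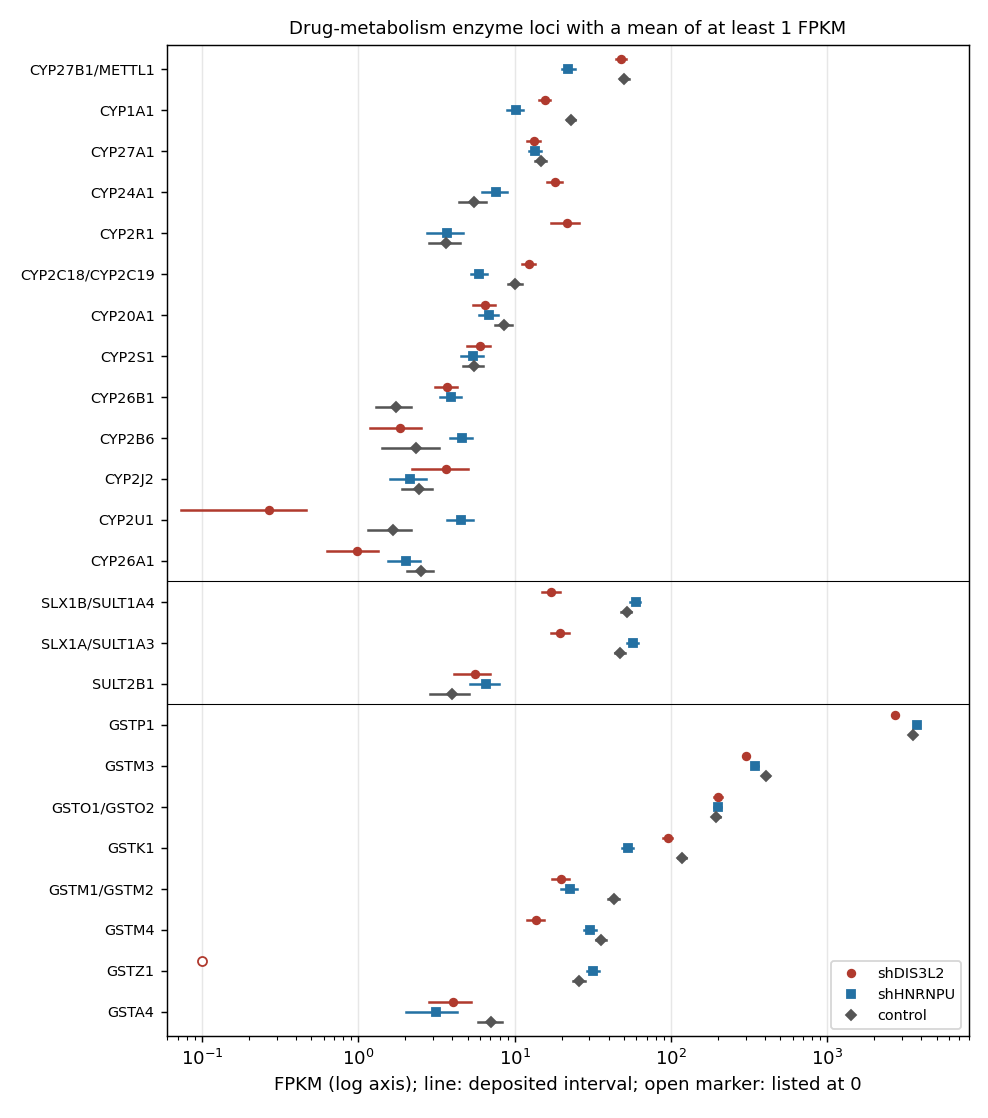
FPKM on a log axis (x) of the 24 enzyme loci with a mean of at least 1 FPKM (rows, ordered by mean within P450, SULT and GST), in shDIS3L2 (circles), shHNRNPU (squares) and control (diamonds), with the deposited interval as a line. GSTP1 lies at 2696 FPKM or above in every library, GSTZ1 is listed at 0 in shDIS3L2 (open circle), and most P450 loci lie below 25 FPKM.

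A locus was called higher or lower by a size rule, which asks for a log2 ratio (after adding 1 to each FPKM) of 1 or more, or of -1 or less, together with intervals that do not overlap. The estimate also had to be marked OK in both libraries by the status deposited with it. In shDIS3L2 against control, 2 of the 24 loci with a mean of at least 1 FPKM were higher (CYP2R1 and CYP24A1) and 6 were lower (CYP2U1, the GSTM1 and GSTM2 locus, GSTM4, GSTZ1 and the loci of SULT1A3 and SULT1A4). Over all 11098 loci of that level, 8.6% were higher and 6.68% lower by the same rule, so the share of higher members, 8.33%, is near that background, while 25% of the members were lower. With GSTZ1 left out and the near-identical SULT1A3 and SULT1A4 loci counted as 1, 4 of 22 members, or 18.2%, were lower in shDIS3L2. CYP2U1, still among these, reached a mean of 1 FPKM only through its value in shHNRNPU. The median log2 ratio of the 24 loci was -0.33 and that of all loci 0.10. By intervals alone, 4 members lay above control and 13 below it in shDIS3L2, where 33.1% and 24.5% of all loci did. In shHNRNPU against control, 1 locus was higher (CYP2U1) and 3 were lower (CYP1A1, GSTK1 and the locus of CYP27B1 and METTL1), against a background of 7.45% higher and 6.78% lower. The median there was -0.06 for the members and 0.12 for all loci. By intervals alone, 6 members lay above control and 8 below it in shHNRNPU, where 34.6% and 23% of all loci did. The knockdowns share the control library, so their ratios against it are not independent. After median-of-ratios rescaling, the counts in shHNRNPU were 0 higher and 5 lower, beside 5.53% and 8.43% of all loci. Those in shDIS3L2 stayed at 2 and 6, beside 6.98% and 8.03%. Of the 10 loci called against control in either knockdown that are above 0 in every library, CYP2R1, GSTM4 and GSTK1 had the same bounds in all 3 libraries and a name of their own.

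**Figure D3:**
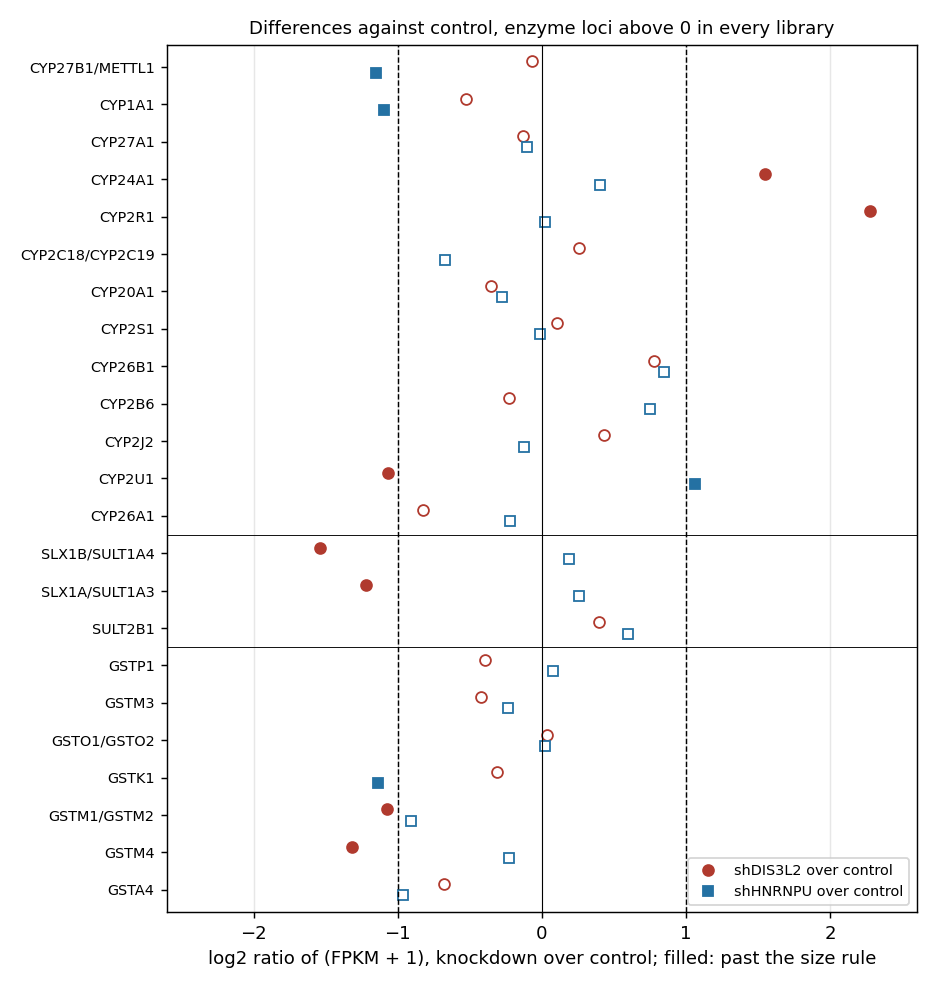
Log2 ratio of FPKM plus 1 against control (x axis) for the 23 enzyme loci with a mean of at least 1 FPKM that are above 0 in every library (rows), in shDIS3L2 (circles) and shHNRNPU (squares). Filled markers are past the size rule, and dashed lines mark -1 and 1. CYP2R1 has the highest ratio in shDIS3L2 (2.27), and CYP2U1 lies beyond -1 in shDIS3L2 and beyond 1 in shHNRNPU.

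Several P450 enzymes known for drug metabolism in adult liver were low or not detected. CYP2B6 and the joint locus of CYP2C18 and CYP2C19, given below, were above 1 FPKM in every library. CYP3A4, which acts on a large share of medicines, was listed at 0 in shDIS3L2 and shHNRNPU and stood at 0.0622 FPKM (0 to 0.314) in control. CYP2E1, the ethanol-inducible enzyme, CYP2A6, which oxidises nicotine, and CYP2W1 were listed at 0 in all 3. CYP2D6, which oxidises many basic drugs, stood at 0.468 FPKM (0.153 to 0.783) in shDIS3L2 and 0.687 (0.430 to 0.944) in shHNRNPU, against 0.747 (0.379 to 1.11) in control. Its intervals overlapped among all 3 libraries. The CYP2A, CYP2C, CYP3A and UGT2B genes have close relatives, between which reads can be split, so single values in these families are uncertain.

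CYP1A1, which oxidises polycyclic aromatic hydrocarbons and is induced through the aryl hydrocarbon receptor AHR, was the most abundant of the P450 of families 1 to 3 in control. It stood at 15.6 FPKM (14.3 to 16.9) in shDIS3L2 and 10.2 (8.98 to 11.3) in shHNRNPU, against 22.9 (21.5 to 24.2) in control (chromosome 15, 75011733 to 75022044, hg19, where bounds differed between libraries). No intervals overlapped, and control was highest and shHNRNPU lowest. The log2 ratio was -0.52 in shDIS3L2, short of the rule, and -1.10 in shHNRNPU, where a pseudocount of 5 brought it to -0.88. AHR itself was higher, at 16.1 FPKM in shDIS3L2 and 14.9 in shHNRNPU, against 6.01 in control, with log2 ratios of 1.29 and 1.19. TIPARP, another gene induced through AHR, was higher in shDIS3L2 at 16.3 FPKM, against 3.28 in control, while in shHNRNPU, at 6.75 FPKM, its log2 ratio of 0.86 did not reach the rule. So AHR and TIPARP lay above control in both libraries in which CYP1A1 lay below it. Neither ARNT nor AHRR, of the same list of receptors and factors, passed the rule. ARNT stood at 7.05 FPKM in shDIS3L2 and 11.5 in shHNRNPU, against 13.7 in control. The AHRR locus, joined to PDCD6, stood at 211 and 156, against 119. Their part in the CYP1A1 difference was not tested.

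CYP1B1, an aryl hydrocarbon-inducible enzyme found mostly outside the liver, stayed under 0.4 FPKM in every library. CYP2S1, which acts on retinoids and is found mainly in epithelia, stood at 5.97 FPKM (4.93 to 6.996), 5.41 (4.52 to 6.30) and 5.48 (4.68 to 6.28) in shDIS3L2, shHNRNPU and control, with overlapping intervals. CYP2B6, a target of the constitutive androstane receptor, stood at 1.86 FPKM (1.19 to 2.52) in shDIS3L2 and 4.61 (3.88 to 5.34) in shHNRNPU, against 2.34 (1.41 to 3.27) in control. Its interval in shHNRNPU lay above both others, but the log2 ratio against control was 0.75. The joint locus of CYP2C18 and CYP2C19 stood at 12.3 FPKM (11.1 to 13.5) and 5.95 (5.23 to 6.66), against 10.1 (9.11 to 11.1), with no overlap among the libraries and log2 ratios of 0.26 and -0.67. Which of the joined genes carried the reads cannot be told from these values.

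Among P450 of vitamin D metabolism, CYP2R1 and CYP24A1 were higher in shDIS3L2. CYP2R1 is a liver 25-hydroxylase that carries out the first activating step. It stood at 21.5 FPKM (17.2 to 25.9) in shDIS3L2 and 3.71 (2.73 to 4.70) in shHNRNPU, against 3.65 (2.82 to 4.49) in control (chromosome 11, 14899553 to 14913798, hg19 as for all loci). That is 5.89-fold control in shDIS3L2, a log2 ratio of 2.27, while shHNRNPU and control overlapped. CYP24A1, the mitochondrial 24-hydroxylase that inactivates vitamin D and is itself a target of the vitamin D receptor, stood at 18.0 FPKM (16.0 to 19.9) in shDIS3L2 and 7.57 (6.20 to 8.95) in shHNRNPU, against 5.50 (4.43 to 6.57) in control (chromosome 20, 52769988 to 52790514, with bounds that differed between libraries). Its log2 ratio was 1.55 in shDIS3L2 and 0.40 in shHNRNPU, where the interval overlapped that of control.

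Of the other vitamin D enzymes here, CYP27A1 did not share that pattern. CYP27A1, a mitochondrial sterol hydroxylase that also acts on vitamin D, stood at 13.3 FPKM (11.998 to 14.6), 13.6 (12.3 to 14.8) and 14.7 (13.5 to 15.9) in shDIS3L2, shHNRNPU and control, with overlapping intervals. CYP27B1, the 1-alpha-hydroxylase, had no value of its own, since it was joined to the overlapping METTL1, a tRNA methyltransferase gene. That locus stood at 47.9 FPKM (44.2 to 51.6) in shDIS3L2 and 22.1 (19.98 to 24.2) in shHNRNPU, against 50.3 (47.0 to 53.7) in control (chromosome 12, 58156117 to 58166576). It was lower in shHNRNPU (log2 ratio -1.15), and which gene the difference belongs to cannot be told apart. The next locus, which holds METTL21B and TSFM and overlaps its end, stood at 64.0 and 57.9 FPKM, against 53.4 in control.

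Of the P450 that break down retinoic acid, CYP26A1 and CYP26B1 lay on opposite sides of control in shDIS3L2. CYP26A1 stood at 0.979 FPKM (0.627 to 1.33) in shDIS3L2 and 2.01 (1.56 to 2.47) in shHNRNPU, against 2.51 (2.04 to 2.98) in control, with an interval in shDIS3L2 below both others. CYP26B1 stood at 3.69 (3.08 to 4.31) and 3.93 (3.33 to 4.53), against 1.74 (1.30 to 2.17), so both knockdown intervals lay above that of control. CYP26C1 was listed at 0 in all 3. The log2 ratios, -0.83 and -0.22 for CYP26A1 and 0.78 and 0.85 for CYP26B1, fell short of the rule. At these levels the pseudocount matters, and with 0.1 in place of 1 CYP26A1 (-1.28 in shDIS3L2) and CYP26B1 (1.04 and 1.13) passed it.

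**Figure D4:**
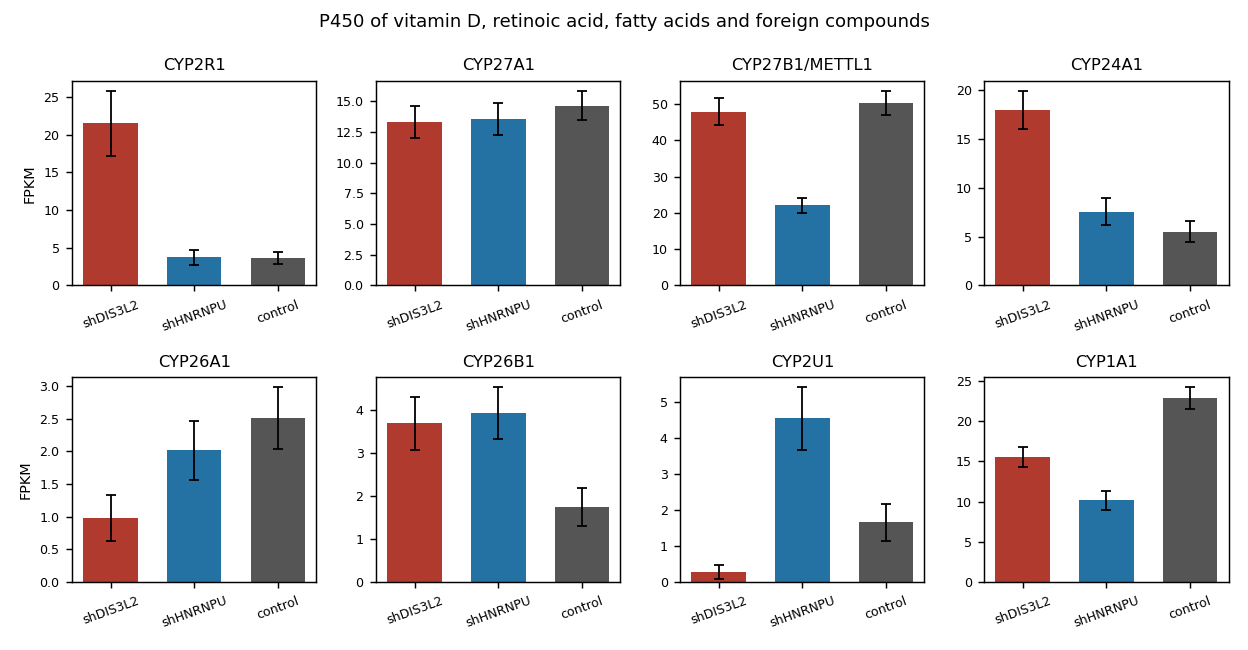
FPKM (y axis, each panel on its own scale from 0) of 8 P450 loci in shDIS3L2, shHNRNPU and control. Error bars are the deposited intervals within 1 library, not replicate error. CYP2R1 and CYP24A1 are highest in shDIS3L2, the CYP27B1 and METTL1 locus is lowest in shHNRNPU, and CYP2U1 is lowest in shDIS3L2 and highest in shHNRNPU.

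CYP26A1 is known to carry a retinoic acid response element close to its start, while AHR is known to act on CYP1A1 mostly from sites farther upstream. The 250 bases before the RefSeq start (GRCh38.p14) are given for both, as genes whose inducers are well known. In CYP1A1 (chr15:74725529-74725778, minus strand) the capitals mark GCGTG, the core bound by AHR and its partner, 57 to 53 bases upstream, and TATAAA, 32 to 27 bases upstream. In CYP26A1 (chr10:93073643-93073892, plus strand, the one of its 2 windows that holds the repeat) they mark a direct repeat of the retinoic acid receptor half-site on the minus strand, 90 to 74 bases upstream, and TATAAA, 31 to 26 bases upstream.
CYP1A1: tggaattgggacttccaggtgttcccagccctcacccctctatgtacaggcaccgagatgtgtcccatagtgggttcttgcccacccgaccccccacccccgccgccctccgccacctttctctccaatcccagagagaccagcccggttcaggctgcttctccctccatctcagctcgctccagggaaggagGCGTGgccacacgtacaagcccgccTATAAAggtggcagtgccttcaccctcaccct
CYP26A1: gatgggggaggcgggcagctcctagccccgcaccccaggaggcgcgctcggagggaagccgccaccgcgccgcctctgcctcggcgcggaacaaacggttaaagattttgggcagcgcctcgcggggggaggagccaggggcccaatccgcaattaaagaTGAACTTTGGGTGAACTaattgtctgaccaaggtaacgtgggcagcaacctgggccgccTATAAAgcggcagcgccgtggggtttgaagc
The repeat was searched on both strands as AGGTCA or AGTTCA followed after any 5 bases by AGGTCA or AGTTCA. It was found in 5 of 35116 upstream windows, or 0.0142%, and CYP26A1 was the only member with it. Other spellings of the half-site were not searched, so both statements hold for these letters only. GCGTG was in 32.2% of all windows and in 22.8% of the 92 windows of members, and TATAAA in 10.7% and 31.5%. Of the 102 member genes, 77 had a window. A match is a description of the letters, and binding was not measured.

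The P450 of fatty acids were all low. CYP2U1, which hydroxylates long-chain fatty acids, was lowest in shDIS3L2 and highest in shHNRNPU, at 0.269 FPKM (0.0733 to 0.464) and 4.54 (3.67 to 5.41), against 1.66 (1.15 to 2.17) in control (chromosome 4, 108852525 to 108874627, bounds differing between libraries). No intervals overlapped, with log2 ratios of -1.07 and 1.06. Its mean reached 1 FPKM only through the value in shHNRNPU. CYP2J2, an epoxygenase of arachidonic acid, stood at 3.62 (2.198 to 5.05), 2.15 (1.60 to 2.70) and 2.44 (1.90 to 2.97) in shDIS3L2, shHNRNPU and control, with overlapping intervals. CYP4F3, which inactivates leukotriene B4, stood at 0.168 FPKM (0 to 0.654) in shDIS3L2 and 0.546 (0 to 1.14) in shHNRNPU, against 1.53 (0.774 to 2.28) in control. CYP4F22, an enzyme of skin ceramide synthesis, stood at 0.187 (0.0475 to 0.326) and 1.78 (1.23 to 2.33), against 0.446 (0.267 to 0.625). CYP4F3 in shDIS3L2 lay below control and CYP4F22 in shHNRNPU lay above both others by their intervals. Both had a mean below 1 FPKM and so were outside the counts. CYP4V2, a fatty acid hydroxylase of the eye, shared its locus with KLKB1, the plasma prekallikrein gene, at 0.810 FPKM (0.262 to 1.36) and 0.308 (0 to 0.790), against 1.06 (0.571 to 1.55), with overlapping intervals. CYP4A11 and CYP4A22 were listed at 0 in all 3 libraries.

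Apart from CYP27A1, which also acts in bile acid synthesis, the bile acid and steroid hormone P450 named next were at most 0.4 FPKM. CYP7A1, the rate-limiting enzyme of bile acid synthesis, and CYP39A1 were listed at 0 in all 3 libraries, and CYP8B1, which sets the cholic acid share of bile, stood at 0 in shDIS3L2 and shHNRNPU, against 0.0380 FPKM in control. CYP7B1 stood at 0.285, 0.162 and 0.114 FPKM in shDIS3L2, shHNRNPU and control. CYP11A1, the side-chain cleavage enzyme of steroid synthesis, stood at 0.396, 0.339 and 0.292, with intervals that all reached 0. CYP11B1, CYP19A1 and CYP21A2 were listed at 0 in all 3. CYP20A1, a P450 whose substrate is not known, was at 6.47 FPKM (5.44 to 7.50) in shDIS3L2 and 6.87 (5.93 to 7.80) in shHNRNPU, against 8.54 (7.52 to 9.55) in control. Its interval in shDIS3L2 lay just below that of control, and it passed the rule in neither.

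Partners of P450 were expressed throughout, with 8 of 8 genes at a mean of at least 1 FPKM and median log2 ratios of 0.14 in shDIS3L2 and -0.11 in shHNRNPU. FDX1, the ferredoxin that carries electrons to the mitochondrial P450 such as CYP24A1 and CYP27A1, was higher in shDIS3L2, at 78.0 FPKM, against 21.9 in control (log2 ratio 1.78), and stood at 21.9 in shHNRNPU. FDXR, the reductase that feeds it, stood at 12.1 FPKM in shDIS3L2 and 24.1 in shHNRNPU, against 24.4 in control. POR, the reductase of the microsomal P450, stood at 92.4 and 130 FPKM, against 172. Both POR in shDIS3L2 (log2 ratio -0.89) and FDXR there (-0.95) fell short of the rule. FDX1 was thus the 1 partner called in shDIS3L2, and there was 0 in shHNRNPU. Over all loci, 8.6% were higher and 6.68% lower in shDIS3L2, and 7.45% and 6.78% in shHNRNPU.

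GSTP1 stood at 2696 FPKM (2608 to 2783) in shDIS3L2 and 3742 (3622 to 3862) in shHNRNPU, against 3539.7 (3431 to 3648) in control (chromosome 11, 67351066 to 67354131). Among all rows of its library it ranked 47, 24 and 25 by FPKM in shDIS3L2, shHNRNPU and control. The interval in shDIS3L2 lay below both others, at 0.762-fold control and a log2 ratio of -0.39. That in shHNRNPU overlapped control, and its log2 ratio of 0.08 turned to -0.08 after rescaling, so no direction is given there.

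All mu class loci above 0 lay below control in both knockdowns. Median-of-ratios rescaling is no check of this, since it lowers every ratio against control. Its factors were 1.02 in shDIS3L2 and 1.05 in shHNRNPU, against 0.944 in control. GSTM3, the most abundant of them, stood at 303 FPKM (289 to 316) in shDIS3L2 and 345 (331 to 359) in shHNRNPU, against 407 (392 to 422) in control. The joint GSTM1 and GSTM2 locus stood at 19.9 (17.3 to 22.4) and 22.5 (19.9 to 25.1), against 43.0 (39.6 to 46.5), on chromosome 1 at 110210644 to 110252171. GSTM4, its neighbour, stood at 13.8 (12.02 to 15.5) and 30.4 (27.8 to 33.0), against 35.8 (33.1 to 38.5). All of these knockdown intervals lay below that of control, as did those of 24.5% of all loci in shDIS3L2 and 23% in shHNRNPU. The narrowest gap was that of GSTM4 in shHNRNPU, with an upper bound of 33.0 against a lower bound of 33.1 in control. The log2 ratios in shDIS3L2 were -0.43 for GSTM3, -1.08 for GSTM1 and GSTM2 and -1.32 for GSTM4, and in shHNRNPU they were -0.24, -0.91 and -0.23. GSTM5 was listed at 0 in every library. These genes are close in sequence, and GSTM1 is missing from many human genomes, so how the joint value splits is uncertain. Reads can be split between close relatives, so the mu class loci are not separate observations. With rescaling the joint locus passed the rule in shHNRNPU too (-1.06), and with a pseudocount of 5 it did not pass in shDIS3L2 (-0.95).

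The other classes of GST differed from each other. GSTK1, the kappa class enzyme of mitochondria and peroxisomes, stood at 95.2 FPKM (88.8 to 101) in shDIS3L2 and 53.1 (48.9 to 57.3) in shHNRNPU, against 118 (111 to 125) in control (chromosome 7, 142941186 to 142967947). It was lower in shHNRNPU (log2 ratio -1.14), and none of the intervals overlapped. GSTA4, which conjugates the lipid peroxidation product 4-hydroxynonenal, stood at 4.03 (2.82 to 5.24) and 3.15 (2.03 to 4.26), against 7.07 (5.83 to 8.31), with both knockdown intervals below control and log2 ratios of -0.68 and -0.96. The joint GSTO1 and GSTO2 locus, whose enzymes reduce dehydroascorbate, stood at 199.9 FPKM (189 to 211), 198 (188 to 209) and 195 (185 to 206) in shDIS3L2, shHNRNPU and control, with overlapping intervals. GSTT1 was listed at 0 in all 3 libraries and GSTT2 reached at most 0.0232 FPKM.

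GSTZ1, which isomerises maleylacetoacetate in tyrosine breakdown, was listed at 0 in shDIS3L2 and stood at 31.7 FPKM (28.9 to 34.5) in shHNRNPU, against 26.0 (23.6 to 28.3) in control (chromosome 14, 77787227 to 77797940). The interval in shHNRNPU lay above that of control, with a log2 ratio of 0.28. The 0 in shDIS3L2 was marked OK and passes the rule as written, but no fold is given for it. POMT2, whose locus ends where GSTZ1 begins, stood at 17.5 FPKM (15.5 to 19.5) in shDIS3L2 and 5.94 (4.27 to 7.61) in shHNRNPU, against 8.32 (6.9997 to 9.63) in control. Whether reads of GSTZ1 were given to POMT2 in shDIS3L2 was not tested. Without GSTZ1, 5 of 23 members were lower in shDIS3L2, beside 4.96% of all loci above 0 in every library.

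Several GST genes are known targets of NRF2, which binds the antioxidant response element, and the upstream 250 bases of the most abundant member and of a lower one are given with that element's core, TGACNNNGC, in capitals. In GSTP1 (chr11:67583562-67583811, plus strand) it lies 66 to 58 bases upstream of the start and holds the AP-1 element TGACTCA. In GSTM1 (chr1:109687567-109687816, plus strand) it lies 165 to 157 bases upstream.
GSTP1: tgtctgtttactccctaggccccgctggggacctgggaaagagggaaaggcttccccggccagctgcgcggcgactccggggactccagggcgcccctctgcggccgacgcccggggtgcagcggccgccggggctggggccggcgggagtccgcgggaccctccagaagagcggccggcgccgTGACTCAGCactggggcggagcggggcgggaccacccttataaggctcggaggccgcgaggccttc
GSTM1: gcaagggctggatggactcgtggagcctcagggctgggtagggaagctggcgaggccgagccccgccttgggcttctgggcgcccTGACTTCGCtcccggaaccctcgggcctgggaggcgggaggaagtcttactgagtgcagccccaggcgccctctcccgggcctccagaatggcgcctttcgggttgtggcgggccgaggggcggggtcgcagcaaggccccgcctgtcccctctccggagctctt
The core, searched on both strands, was in 10.9% of all 35116 windows and in 14.1% of the 92 windows of members. AP-1 elements (TGACTCA or TGAGTCA) were in 4.203% of all windows and 3.26% of those of members. NFE2L2, the gene of NRF2, was higher in shDIS3L2 at 48.0 FPKM (log2 ratio 1.14) and stood at 29.3 in shHNRNPU, against 21.3 in control.

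Of 9 glutathione supply genes with a mean of at least 1 FPKM, 3 were higher in shDIS3L2 and 0 lower, with a median log2 ratio of 0.45. Over all loci of that level, 8.6% were higher and 6.68% lower in shDIS3L2. GCLC, the catalytic subunit of the first enzyme of glutathione synthesis, stood at 20.6 FPKM, against 7.29 in control. CHAC1, which degrades glutathione, stood at 94.4, against 28.6. GGT1, which cleaves it outside the cell, stood at 178, against 68.3, at a locus joined to SNRPD3. GSS, CBS and CTH had log2 ratios below 0 in shDIS3L2 (-0.36, -0.52 and -0.79). In shHNRNPU the median was 0.18, and CBS of cysteine synthesis was lower (63.6 FPKM against 144 in control). The membrane-bound glutathione transferases and their relatives had 5 members of that level, with 0 called in either knockdown and medians of 0.33 in shDIS3L2 and -0.06 in shHNRNPU. MGST3 led them, at 192 and 121 FPKM in shDIS3L2 and shHNRNPU, against 152 in control.

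Among sulfotransferases, the loci of SULT1A3 and SULT1A4 were lower in shDIS3L2. SULT1A3 and SULT1A4 are near-identical copies on chromosome 16 whose enzyme sulfates dopamine and other catecholamines, and each was joined to SLX1A or SLX1B, copies of a structure-specific nuclease subunit gene. The SULT1A3 locus (30205208 to 30215631) stood at 19.6 FPKM (17.1 to 22.2) in shDIS3L2 and 56.7 (52.3 to 61.1) in shHNRNPU, against 47.2 (43.5 to 50.9) in control. The SULT1A4 locus (29465822 to 29476300) stood at 17.2 (14.9 to 19.4) and 59.4 (55.0 to 63.7), against 51.9 (48.2 to 55.7). Summed, they reached 36.8 FPKM in shDIS3L2 and 116 in shHNRNPU, against 99.1 in control. The log2 ratios were -1.22 and -1.54 in shDIS3L2 and 0.26 and 0.19 in shHNRNPU, where the interval of the SULT1A3 locus lay above that of control and that of SULT1A4 overlapped it. As the copies can exchange reads, these are 1 observation and not a pair, and the share of SLX1A, SLX1B and the SULT genes in it cannot be told apart. The neighbours BOLA2B and BOLA2, which overlap these loci at one end, had log2 ratios of 0.16 and 0.52 in shDIS3L2.

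SULT1A1, the main phenol sulfotransferase of liver, stood at 0.0363 FPKM (0 to 0.371) in shDIS3L2 and 0.223 (0 to 0.643) in shHNRNPU, against 1.57 (0.769 to 2.36) in control, with both knockdown intervals below that of control. SULT2A1, the hydroxysteroid sulfotransferase of liver and adrenal, was listed at 0 in shDIS3L2 and shHNRNPU, against 0.227 FPKM (0.0804 to 0.374) in control. Both were under a mean of 1 FPKM. SULT2B1, which sulfates cholesterol, was the more abundant of the hydroxysteroid enzymes, at 5.54 (4.12 to 6.97) in shDIS3L2 and 6.53 (5.15 to 7.91) in shHNRNPU, against 3.97 (2.86 to 5.08) in control. Only the shHNRNPU interval lay above that of control, with a log2 ratio of 0.60. Of the 6 genes that supply UDP-glucuronic acid and the sulfate donor PAPS, 0 were called in shDIS3L2 and 1 in shHNRNPU, BPNT1, which degrades the by-product of sulfation (9.85 FPKM against 36.8). Their median log2 ratios were 0.03 and -0.07, and 6.78% of all loci were lower in shHNRNPU.

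Glucuronosyltransferases were barely detected. The UGT1A locus, whose 8 member names here include the bilirubin enzyme UGT1A1 and share their last exons, stood at 0.0708 FPKM (0 to 0.482), 0.0999 (0 to 0.547) and 0.0408 (0 to 0.371) in shDIS3L2, shHNRNPU and control. UGT2B4, which acts on bile acids, stood at 0.250 FPKM (0 to 0.607) in shDIS3L2 and 0.189 (0 to 0.513) in shHNRNPU, against 1.04 (0.608 to 1.48) in control, and both knockdown intervals lay below that of control. UGT2A3 stood at 1.30 (0.963 to 1.64) and 0.549 (0.330 to 0.769), against 0.655 (0.437 to 0.873), the interval in shDIS3L2 being above the others. UGT2B7, which conjugates morphine and many other drugs, stood at 0.363, 0.230 and 0.0854 FPKM in shDIS3L2, shHNRNPU and control, with intervals that all reached 0. UGT2B10, UGT2B11 and UGT2B15 were listed at 0 in shHNRNPU and lay between 0.0885 and 0.499 FPKM in the other libraries.

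Set against shDIS3L2 directly, shHNRNPU had 5 members higher (CYP2U1, GSTM4, GSTZ1 and the SULT1A3 and SULT1A4 loci, or 3 without GSTZ1 and with the SULT loci counted as 1) and 3 lower (CYP2R1, CYP24A1 and the CYP27B1 and METTL1 locus). Over all loci 9.14% were higher and 10.1% lower. By intervals alone, 9 members lay higher and 6 lower, where 31.1% and 28.5% of all loci did. The log2 ratio of CYP2R1 was -2.26, that of CYP24A1 -1.15 and that of CYP2U1 2.13. GSTP1, at 3742 FPKM in shHNRNPU and 2696 in shDIS3L2, had a log2 ratio of 0.47 with intervals apart.

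Receptors and transcription factors that control these genes passed the rule in both directions. Of 20 with a mean of at least 1 FPKM, 4 were higher and 4 lower in shDIS3L2, and 2 higher and 3 lower in shHNRNPU. The medians were 0.09 and 0.29. Over all loci, 8.6% were higher and 6.68% lower in shDIS3L2, and 7.45% and 6.78% in shHNRNPU. The count of higher factors in shHNRNPU is near that share. Beside AHR, TIPARP and NFE2L2, the fourth higher in shDIS3L2 was NR0B2, a repressor in bile acid signalling (27.1 FPKM against 11.9). ONECUT1 and CEBPA, transcription factors of hepatocytes, were lower in shDIS3L2, at 8.61 FPKM against 32.8 in control and at 25.9 against 71.7, as were FOXA1 (8.76 against 20.1) and FOXA3. CEBPA was lower in shHNRNPU too, at 19.9 FPKM, as were FOXA1 (7.36 against 20.1) and NR0B2 (4.03 against 11.9), while CEBPB was higher (225 against 94.3). NR1I2, the pregnane X receptor that induces CYP3A4, was listed at 0 in all 3 libraries. NR1I3, the constitutive androstane receptor, stood at 0.765 FPKM in shDIS3L2 and at 0 in shHNRNPU and control. HNF4A, a factor on which many liver P450 genes depend, stood at 29.8 FPKM in shDIS3L2 and 45.8 in shHNRNPU, against 42.3 in control, and passed the rule in neither.

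Other enzymes of drug metabolism were mostly not called. Among 8 loci of epoxide hydrolases, esterases, oxidases and dehydrogenases of that level, where CES2 and CES3 share 1 locus, the median was -0.37 in shDIS3L2 and -0.53 in shHNRNPU. Of these, 1 was lower in shDIS3L2 and 2 in shHNRNPU, with 0 higher. Over all loci, 6.68% were lower in shDIS3L2 and 6.78% in shHNRNPU, and 8.6% and 7.45% were higher. EPHX2, the soluble epoxide hydrolase that acts on products of CYP2J2, was lower in both, at 3.80 FPKM in shDIS3L2 and 3.15 in shHNRNPU, against 10.3 in control, and ADH5 was lower in shHNRNPU (25.3 against 80.6). Of 5 other conjugating enzymes, 2 were lower in shDIS3L2 and 2 in shHNRNPU, beside the same shares of all loci. Their medians were -0.15 and -0.82. BAAT, which joins bile acids to glycine or taurine, was counted lower in both. Its locus stood at 1.88 FPKM in shDIS3L2 and 1.80 in shHNRNPU, against 19.2 in control. In control that locus was joined to MRPL50, and its names and bounds differed between libraries. These values therefore compare unlike loci, and the share of BAAT in the difference cannot be told. HNMT, which inactivates histamine, was the other lower in shDIS3L2 (1.79 against 4.65), and NNMT, which methylates nicotinamide, the other lower in shHNRNPU (12.1 against 26.5).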

How the data were processed

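RNA-seq of PLC cells was analysed from 3 tables, 1 library per group. Per the labels' protocols, total RNA was made into libraries with the NEBNext Ultra kit, which is not described as stranded, so overlapping and antisense genes cannot be separated. Per the submitters' processing notes, TopHat2 2.0.12, Cufflinks 2.2.1 and hg19 were used; the sources used here do not give the annotation or the normalization options. The deposited values are FPKM per locus with a lower and an upper bound, taken as the 95% that Cufflinks gives by default. Identifiers show that loci were assembled in each library separately. Starts were written as 1-based.

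Loci were matched by their full set of gene names (51853 found in all 3 libraries); every member matched 1 row per library. Where a name had several loci, that of highest mean level was kept. Counts cover loci with a mean FPKM of at least 1 (11098, of which 674 were listed at 0 in a library). Log2 ratios used a pseudocount of 1, so changes of low genes are understated. Fragment counts are not in the tables, so no count test was run; depth came from the intervals of single-exon genes. Python 3.11.15, pandas 2.3.3 and matplotlib 3.10.9 were used.

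The members, the lists of other genes and the rules were chosen with earlier results of these data known. Genes named are those of at least 1 FPKM in a library (where a class has more than 10, those called and the 5 most abundant), others to state low levels, and called genes of each list. Other low enzymes were named, and neighbours of joined loci were added, after their values were seen. Some genes are not reported here.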

Additional observations from a re-analysis of the deposited data

Results flagged for a closer look

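CYP2U1 was the 1 enzyme past the size rule in opposite directions in the knockdowns, with log2 ratios of -1.07 in shDIS3L2 and 1.06 in shHNRNPU against the same control. The difference between these ratios was not tested, as each group is 1 library. The FPKM were 0.269 in shDIS3L2 and 4.54 in shHNRNPU, against 1.66 in control, and the assembled bounds of the locus differed between libraries. The locus met the filter of a mean of 1 FPKM only through shHNRNPU, so its call in shDIS3L2 also depends on that library. Its call in shHNRNPU was lost after rescaling (0.95), and both calls were lost with a pseudocount of 5 (-0.34 and 0.52).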

How the results depend on the processing

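Alternatives were a pseudocount of 0.1 or 5, a mean of at least 5 FPKM, no filter, median-of-ratios rescaling, no loci listed at 0, like bounds and 1 name, summed loci, a threshold of 1.5-fold and no condition on intervals. Of 84 planned counts and medians, 64 stayed within 1.5 times or 0.1 log2. In shDIS3L2 against control, like bounds and 1 name gave 1 higher and 2 lower of 10 loci. Of all such loci 8.87% were higher and 6.66% lower. The median of members in shDIS3L2 was -0.44 after rescaling and 0.00 without a filter, where most loci are near 0. In shHNRNPU against control, 2 members were higher with a pseudocount of 0.1 and 4 at 1.5-fold. These are 8.33% and 16.7% of the members, beside 10.4% and 19.4% of all loci. The count was 0 with a pseudocount of 5, a mean of at least 5, rescaling or like bounds. The shares of all loci there were 3.07%, 6.71%, 5.53% and 7.64%. Lower members in shHNRNPU were 5 after rescaling (20.8%), 6 at 1.5-fold (25%) and 1 with like bounds (10%). Of all loci 8.43%, 13.2% and 7.57% were lower in these settings. The median of members there was -0.19 after rescaling. In shHNRNPU against shDIS3L2, higher members were 3 with a pseudocount of 5 and 2 with like bounds, beside 4.16% and 8.78% of all loci. Lower members were 1 with either and 5 at 1.5-fold, beside 5.74%, 10.8% and 18.6% of all loci. The median of members was 0.34 with like bounds. Leaving out GSTZ1 and counting the SULT1A3 and SULT1A4 loci as 1 was chosen after seeing the data. It gave 3 higher in shHNRNPU against shDIS3L2 and 4 lower in shDIS3L2 against control. These are 13.6% and 18.2% of the members, beside 9.14% and 6.68% of all loci. Of the single ratios, 9 lost and 8 gained a call, and none that was called reversed. No paired analysis was possible because each group has 1 library. Levels under 1 FPKM rest on few fragments, so differences there were often not detectable at this depth, and variation between cultures was not measured.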
